A study of Mus musculus with 8 samples.

Results

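Cx3cr1 and EYFP are 2 of the 16889 genes in the single-cell table, chosen by name. Cx3cr1 encodes the fractalkine receptor CX3CR1. EYFP is the yellow fluorescent protein that these mice make from the Cx3cr1 promoter, and its row counts molecules that matched a generic EYFP sequence added to the reference by the authors. All 8 mice were female CD98hcΔCX3CR1 animals aged 6 to 12 weeks, in which the floxed CD98hc gene (Slc3a2) can be deleted by a tamoxifen-activated Cre recombinase that is made, together with YFP, under the Cx3cr1 promoter. The 4 control mice received corn oil and the 4 cKO mice received tamoxifen on 5 days, and CD11b+ cells bearing CCR2 or CD64 were sorted from the colonic lamina propria on day 7. Controls carried the same alleles as cKO mice, so tamoxifen itself and the deletion cannot be told apart. Whether 1 or both copies of Cx3cr1 carried the reporter is not given in the sources used here.

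CX3CR1 is a chemokine receptor coupled to inhibitory G proteins, and its ligand fractalkine (Cx3cl1) is a chemokine anchored in the membrane of epithelial and endothelial cells, from which the proteases ADAM10 and ADAM17 release a soluble form. In the blood the receptor is low on classical Ly6C-high monocytes and high on patrolling monocytes. In the intestine it marks resident macrophages that sample the lumen and take up debris, and monocytes that enter the colon gain it as they mature. Reporter mice read the promoter and not the receptor protein, and fluorescent protein and its mRNA need not have the same lifetime as the receptor mRNA.

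Mouse Cx3cr1 lies on chromosome 9, minus strand (chr9:119901616-120069879, GRCm38, GENCODE vM21), with 3 annotated transcripts that share a coding region in a single exon (chr9:120051273-120052334). Part of the promoter is shown because EYFP and Cx3cr1 are both read from the Cx3cr1 promoter in these mice. The stretch lies between 54 and 25 bases before the RefSeq transcription start (GRCm38.p6, chr9:120068321-120068350, minus strand). It was chosen as the 30 bases with the most matched motif bases in the 250 searched. The stretch precedes the first exon of 2 of the 3 transcripts but lies within the noncoding exon 2 (chr9:120068205-120068958) of the other, which starts further upstream. Capitals mark, from the 5′ end, a core of RUNX factors, a core of ETS factors and a CCAAT box that reads on the other strand.

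Cx3cr1 promoter: ACCACAcAGGAAaccagatgctATTGGcta

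Each of the 3 motifs was found once in the 250 bases before the start, searched on both strands, and the 3 matches do not overlap. They are common: the RUNX core ACCACA was found in 14.05% of 32851 RefSeq promoter windows of the same length, the ETS core AGGAA in 60.28% and the box CCAAT in 33.85%. GAGGAA, the core preferred by the ETS factor PU.1, gave no match in this window, nor did TTGCNNAA, a core of C/EBP factors, when searched in the same way.

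The 5947 barcodes of the table gave 3213 cells after filtering, between 83 and 724 per mouse, with 497531 to 3762314 unique molecules (UMIs) per mouse. Control mouse 3 (85 cells) and cKO mouse 5 (83 cells) were the smallest libraries, and a doublet caller marked 28.9% of the cells of cKO mouse 5 and 0.396% to 5.88% of those of each other mouse. In all, 25 barcode strings occurred in more than 1 library, and 24 of the 3213 cells kept carried one of them; their part in the results was not tested. Slc3a2, the targeted gene, stood at 337 ± 117 CPM (counts per 1e6 UMIs; SD, n = 4) in controls and 320 ± 27.9 CPM (SD, n = 4) in cKO mice over all cells. In macrophage-like cells it was 332 ± 28.6 and 259 ± 56.4 CPM (SD, n = 4 each), and in macrophage-like cells with an EYFP UMI 352 ± 33.6 and 326 ± 121 CPM (SD, n = 4 each). These means include cKO mouse 5, which had 18 macrophage-like cells (179 CPM), 6 of them with an EYFP UMI. In cKO mice 6 to 8 the macrophage-like values were 308, 288 and 261 CPM, and the fit for this type below left out cKO mouse 5. No fit by condition passed for Slc3a2 (edgeR quasi-likelihood test, adjusted p = 0.976 over all cells and 0.789 in macrophage-like cells), so these counts do not by themselves show the deletion. They are counts of 3′ ends, whereas Cre removes exon 3, an internal exon, so RNA without that exon can still be counted. cKO is used as the labels use it.

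EYFP was a low-count gene and Cx3cr1 a very low one. EYFP gave 832 UMIs in 481 cells, of which 273 cells had 1 UMI, 126 had 2 and 82 had 3 or more, with at most 8 in a cell. Cx3cr1 gave 100 UMIs in 88 cells, 78 of them with a single UMI. Per mouse, EYFP UMIs numbered 324, 202, 29 and 104 in controls 1 to 4 and 23, 42, 35 and 73 in cKO mice 5 to 8. The corresponding Cx3cr1 UMIs were 37, 31, 4 and 10, and 4, 5, 2 and 7. A cell without a UMI can therefore not be read as a cell without the transcript.

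EYFP was concentrated in macrophage-like cells, lower in monocyte-like cells, near 0 in dendritic cell-like cells and not seen in lymphoid-like or stromal-like cells. Clusters were formed without Cx3cr1, EYFP and Slc3a2 and named from marker lists, so the levels of these genes between types were not built in. The 768 macrophage-like cells were 23.9% of all cells and held 60.3% of EYFP UMIs and 58% of Cx3cr1 UMIs. They were led by complement genes (C1qa, C1qb, C1qc), Pf4 and Fcrls, and all 19 macrophage markers were detected in them. Detection alone does not set them apart, since 18 of the 19 were also detected in monocyte-like cells with an EYFP UMI. The 19 markers summed to 64731 CPM in macrophage-like cells with an EYFP UMI and 53483 CPM in those without. In monocyte-like cells the sums were 6916 and 3650 CPM. Pooled over mice, EYFP stood at 143.2 CPM in macrophage-like cells (95% exact Poisson interval 131.0 to 156.3), 48.1 CPM in the 467 monocyte-like cells (39.4 to 58.2) and 4.22 CPM in the 507 dendritic cell-like cells (2.61 to 6.45). These intervals cover counting error only. The 269 lymphoid-like and stromal-like cells gave 0 EYFP UMIs in 1219125, which with a floor of 3 UMIs over the group makes macrophage-like cells at least 58.2-fold higher.

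By mouse, EYFP in macrophage-like cells was 174, 148, 213 and 107 CPM in controls 1 to 4 and 108, 102 and 101 CPM in cKO mice 6 to 8, the mice with at least 20 such cells. In monocyte-like cells it was 137, 103 and 53.2 CPM in controls 1, 2 and 4 and 16.7, 7.52 and 39.8 CPM in cKO mice 6, 7 and 8. In each of the 6 mice with both values the macrophage-like level was the higher. The mean difference between macrophage-like and monocyte-like cells was 1.28 ± 0.94 on the log2(CPM + 10) scale (SD, higher in 6 of 6 mice, two-sided exact sign-flip permutation test p = 0.03125, the smallest that 6 mice allow). Against dendritic cell-like cells it was 3.44 ± 0.36 (SD, 7 of 7 mice, exact p = 0.015625, the smallest that 7 mice allow), and against lymphoid-like and stromal-like cells 3.71 ± 0.31 (SD, 6 of 6 mice, exact p = 0.03125). Adjusted over the 6 comparisons of EYFP and Cx3cr1, each of these 3 exact p-values became 0.0625, so none was below 0.05 after adjustment.

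In controls Cx3cr1 was also higher in macrophage-like than in the other named types, but with far fewer molecules, and its differences over all mice did not pass. Pooled, it stood at 16.5 CPM in macrophage-like cells, 3.598 CPM in monocyte-like cells (8 UMIs), 0.804 CPM in dendritic cell-like cells (4 UMIs) and 0.820 CPM in lymphoid-like and stromal-like cells (1 UMI). The macrophage-like values were 23.8, 22.1, 20.3 and 11.6 CPM in controls 1 to 4 and 0, 0 and 5.44 CPM in cKO mice 6 to 8. Within mouse, macrophage-like minus monocyte-like was 0.39 ± 0.78 on the log2(CPM + 10) scale (SD, higher in 3 of 6 mice, exact sign-flip permutation test p = 0.3125), minus dendritic cell-like 0.91 ± 0.72 (SD, 5 of 7 mice, exact p = 0.0625) and minus lymphoid-like and stromal-like 0.77 ± 0.70 (SD, 4 of 6 mice, exact p = 0.125). In cKO mice the pooled value was 2.36 CPM in macrophage-like cells (2 UMIs, exact Poisson interval 0.286 to 8.53). It was 3.55 CPM in monocyte-like cells (5 UMIs, 1.15 to 8.29). These intervals overlap, so the order of macrophage-like and monocyte-like cells in cKO mice was not shown. Cx3cr1 was 0 against 5.55 CPM in cKO mouse 6, 5.44 against 7.02 CPM in cKO mouse 8 and 0 in both types in cKO mouse 7. Against the other 2 groups of cells cKO mice 6 and 7 were at 0 on both sides.

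**Figure D1:**
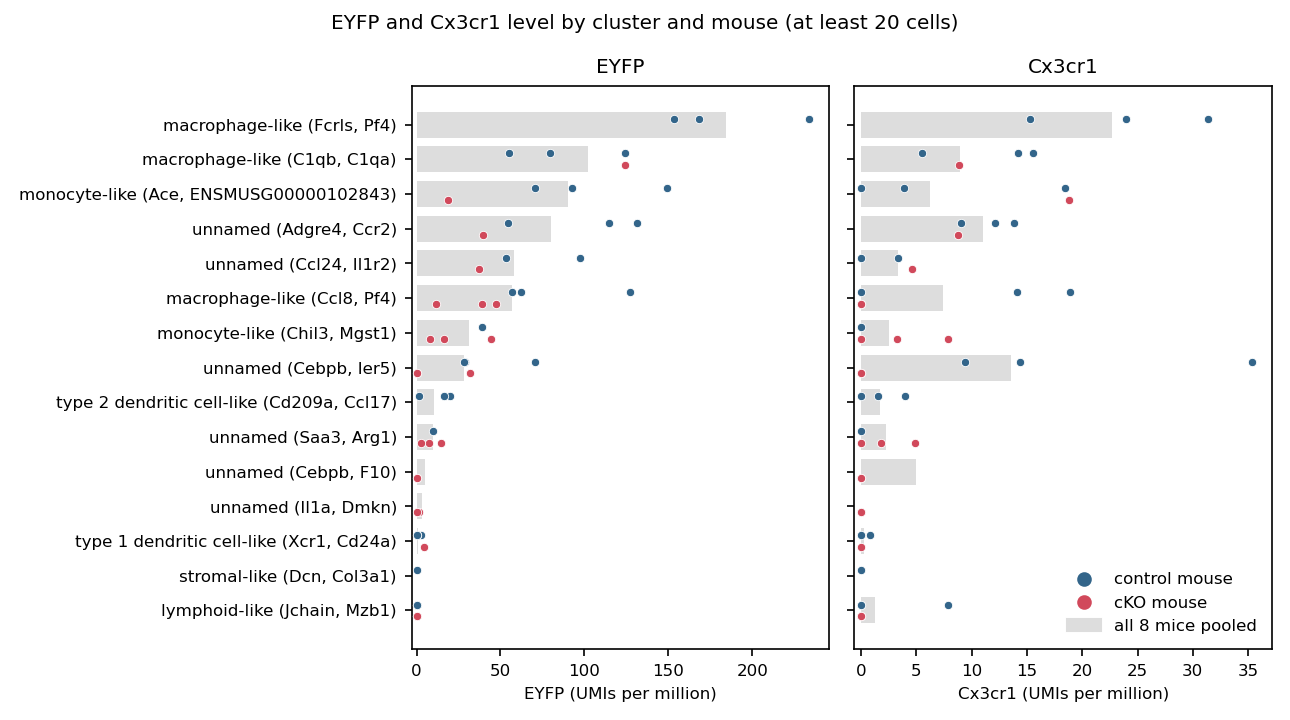
EYFP (left) and Cx3cr1 (right) in CPM for the 15 clusters, ordered by EYFP. Grey bars pool all 8 mice and points are mice with at least 20 cells of the cluster. Pooled EYFP falls from 184 CPM in the macrophage-like cluster led by Fcrls and Pf4 to 0 in the stromal-like and lymphoid-like clusters.

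Among the 15 clusters the macrophage-like cluster led by Fcrls and Pf4 carried most of both genes. Its 326 cells, 10.1% of the total, held 43.9% of EYFP UMIs and 45% of Cx3cr1 UMIs, at 184 and 22.7 CPM. In controls 1, 2 and 4 its EYFP level was 234, 154 and 168 CPM and its Cx3cr1 level 31.4, 23.9 and 15.3 CPM. The macrophage-like cluster led by C1qb and C1qa, which also expressed Axl, a receptor of the uptake of dying cells, had 102 CPM of pooled EYFP. In controls alone its 87.0 CPM lay below the monocyte-like cluster led by Ace (114 CPM) and the unnamed cluster led by Adgre4 (101 CPM). The macrophage-like cluster led by Ccl8 and Pf4, which had little RNA (median 1181 UMIs per cell), had 56.6 CPM. Within mouse, the cluster led by Fcrls exceeded the one led by C1qb in 3 of 3 mice, by 1.06 ± 0.68 on the log2(CPM + 10) scale, and the one led by Ccl8 in 3 of 3 mice, by 1.14 ± 0.79 (SD, n = 3, exact sign-flip permutation p = 0.25 each, the smallest possible). The cluster led by C1qb exceeded the one led by Ccl8 in 2 of 4 mice (0.72 ± 1.28, SD, exact p = 0.5), so their order was not shown. C1qc was among the leading genes of all 3 clusters. The cluster led by Fcrls shared C1qa with the one led by C1qb, and Pf4 with the one led by Ccl8.

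Pooled levels also differed between the 2 monocyte-like clusters, which had different shares of control and cKO cells. The one led by Ace and Pglyrp1, genes known from patrolling monocytes and from myeloid granules, had 90.4 CPM of EYFP, and the one led by Chil3 and Ly6c2, genes of classical monocytes, had 31.0 CPM. In controls the values were 114 and 73.0 CPM. In cKO mice they were 7.09 CPM (1 UMI, exact Poisson interval 0.179 to 39.5) and 20.5 CPM (13.4 to 30.1). The wider interval contains 20.5 CPM, so the order of these clusters in cKO mice was not shown. Within mouse the cluster led by Ace was higher in 2 of 2 mice, control 4 and cKO 6. The mean difference was 0.43 ± 0.41 on the log2(CPM + 10) scale (SD, exact sign-flip permutation p = 0.5, the smallest possible). Dendritic cell-like cells had 10.2 CPM in the type 2 cluster (led by Cd209a and Ccl17) and 0.934 CPM in the type 1 cluster (led by Xcr1 and Cd24a), and the former was higher in 3 of 3 mice, by 0.94 ± 0.64 (SD, exact p = 0.25, the smallest possible). The 14 dendritic cell-like cells with an EYFP UMI had 2616 CPM of the 19 macrophage markers summed against 1349 CPM in the 493 without (16 and 18 markers detected), and 1 of the 14 was called a doublet. The part of macrophage RNA in these 14 cells was not tested.

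Several clusters that no marker list named carried EYFP as well. The cluster led by Adgre4, Ccr2 and Ms4a8a had 80.0 CPM of EYFP and 11.002 CPM of Cx3cr1, and the one led by Ccl24 and Il1r2 had 57.8 and 3.36 CPM. The cluster led by Cebpb and Ier5, of low RNA (median 1940 UMIs), had 28.6 CPM of EYFP and 13.5 CPM of Cx3cr1. Of its 9 Cx3cr1 UMIs 3 came from 14 cells of cKO mouse 5, the mouse with the many doublet calls, and the mean over the 6 mice with at least 20 such cells was 9.86 CPM. The clusters led by Saa3 and Arg1, by Cebpb and F10, and by Il1a and Dmkn, which consisted mostly of cells from cKO mice, had 9.78, 4.93 and 3.30 CPM of EYFP. Of the 14 pairs of neighbours in the pooled order of EYFP levels, 10 could be compared over 2 to 4 mice, too few for any exact test to pass (smallest possible p of 0.125 to 0.5), so the order is a description. In 5 of the 10 pairs the cluster placed higher was higher in every mouse compared, and in 4 of these by a mean above its SD. Among them, the monocyte-like cluster led by Chil3 exceeded the one led by Cebpb and Ier5 in 4 of 4 mice (0.74 ± 0.49, SD, exact p = 0.125). In the other 5 pairs the direction was not the same in all mice.

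The share of cells with a UMI depends on depth, so shares were also taken after thinning every cell to 2000 UMIs. In this way 24.8% of macrophage-like cells (128 of 517, exact binomial 95% interval 21.1% to 28.7%) and 8.39% of monocyte-like cells (35 of 417, 5.92% to 11.5%) had an EYFP UMI. In dendritic cell-like cells the share was 1.03% (5 of 485), and 0 of 225 lymphoid-like and stromal-like cells had one, for which a floor of 3 cells allows a share of up to 1.33% (exact binomial upper limit 1.63%). The latter types were taken as the background that free RNA gives. Without thinning the shares were 33.5%, 15.6%, 2.76% and 0 of 269 cells, at median depths of 3842, 4711, 9365 and 4138 UMIs. The deepest type was thus among those with the fewest EYFP-positive cells. Thinning left out 251 macrophage-like, 50 monocyte-like, 22 dendritic cell-like and 44 lymphoid-like and stromal-like cells. Cx3cr1 was seen in 2.51% of thinned macrophage-like cells (13 cells, 1.35% to 4.26%) and in 0.240% of thinned monocyte-like cells (1 cell).

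**Figure D2:**
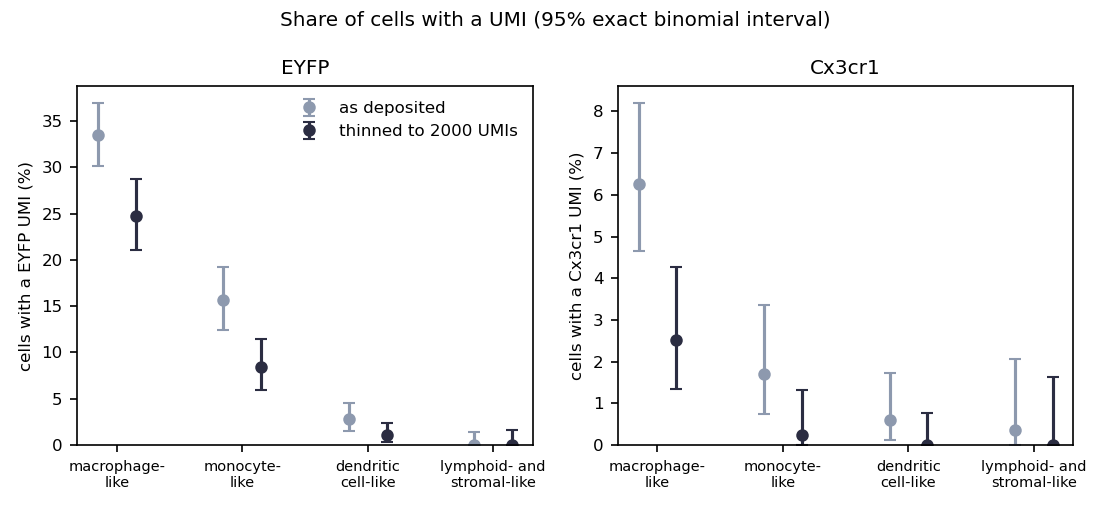
Percentage of cells with at least 1 EYFP UMI (left) or Cx3cr1 UMI (right) by cell type, as deposited and after thinning to 2000 UMIs per cell. Bars are 95% exact binomial intervals for counting error. EYFP falls from 24.8% of thinned macrophage-like cells to 0 of 225 lymphoid-like and stromal-like cells.

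Where Cx3cr1 was seen, EYFP was often seen too, although the counts were too few at equal depth for a test. Without thinning, 47 cells held both transcripts, 434 EYFP alone and 41 Cx3cr1 alone. Among macrophage-like cells EYFP was present in 68.8% of the 48 cells with a Cx3cr1 UMI and in 31.1% of those without, and the former were deeper (median 6853 against 3665.5 UMIs). In the cluster led by Fcrls and Pf4 the shares were 78.4% and 50.2%, at median depths of 6856 and 5373 UMIs. After thinning, 6 cells held both transcripts against 4.05 given by independence within mouse and type, a ratio of 1.48. Only controls 1 and 2 had an expected number of at least 1, with 2 cells observed against 1.79 and 1 against 1.18 (exact sign-flip permutation p = 1, smallest possible 0.5). A comparison at the full depth within mouse, cluster and depth class was added after the data were seen. Over all 8 mice 47 cells were observed against 34.5, a ratio of 1.36. Only 6 mice had an expected number of at least 1, and the ratio exceeded 1 in each of the 6 (exact sign-flip permutation p = 0.03125, the smallest that 6 mice allow). The depth classes were coarse, so depth was matched only in part.

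The number of EYFP UMIs per Cx3cr1 UMI was 8.32 over all cells (95% interval 6.75 to 10.3). Both are counts of 3′ ends of different transcripts, so this is no ratio of transcript numbers. It lay between 5.75 and 17.5 in the 8 mice, with intervals that overlapped. It was 8.66 in macrophage-like cells (6.59 to 11.6) and 13.4 in monocyte-like cells (6.55 to 31.8). In the low-RNA cluster led by Cebpb and Ier5 it was 2.11 (0.910 to 5.30), from 19 EYFP and 9 Cx3cr1 UMIs.

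By condition, both transcripts had lower mean levels in cKO mice over all cells, and neither passed the test. EYFP was 86.1, 61.8, 49.2 and 35.0 CPM in controls 1 to 4 and 46.2, 25.4, 14.1 and 31.9 CPM in cKO mice 5 to 8. The lowest control lay below the highest cKO mouse, so the groups overlapped. The means were 58.0 ± 21.7 and 29.4 ± 13.4 CPM (SD, n = 4 each, two-sided exact permutation test on log2(CPM + 10) p = 0.0571, smallest possible 0.02857). In the edgeR quasi-likelihood fit the log2 fold change was -1.03 (SE 0.33, adjusted p = 0.104), where 4.48% of 11387 genes passed. Cx3cr1 was 7.37 ± 2.99 CPM in controls and 3.73 ± 3.06 CPM in cKO mice (SD, n = 4 each, exact permutation p = 0.143). Its log2 fold change was -1.34 (SE 0.53, edgeR adjusted p = 0.176). In sums of all cells, fewer cells of a type and less RNA per cell cannot be told apart.

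EYFP was lower in the monocyte-like cells of the 3 cKO mice. The control values of 137, 103 and 53.2 CPM and the cKO values of 16.7, 7.52 and 39.8 CPM did not overlap, with means of 97.5 ± 41.996 and 21.3 ± 16.6 CPM (SD, n = 3 each). In the edgeR quasi-likelihood fit EYFP was lower by 2.16 on the log2 scale (SE 0.46, adjusted p = 0.00759), a 4.47-fold lower level. In this comparison 0.434% of 11065 genes passed. The fit took the sums of all types from each mouse without a term for the mouse, so its error can be too small. The exact permutation test over the 3 and 3 mice gave p = 0.1, its smallest possible value. The call did not hold without control 1 (adjusted p = 0.196), cKO 6 (0.0844) or cKO 7 (0.259). Cx3cr1 in the same cells rested on 3 control and 5 cKO UMIs, with a log2 fold change of 0.07 (SE 1.04).

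The make-up of the monocyte-like class differed between conditions. In controls 136 of its 201 cells belonged to the cluster led by Ace, and in cKO mice 216 of 266 belonged to the cluster led by Chil3. The 9 monocyte markers summed to between 9733 and 11804 CPM in the monocyte-like cells of each control and between 15979 and 18009 CPM in those of each cKO mouse, and the 19 macrophage markers to between 5901 and 9966 and between 2148 and 3561 CPM. Within the cluster led by Ace, pooled EYFP was 114 CPM in controls (57 UMIs in 136 cells) and 7.09 CPM in cKO mice (1 UMI in 50 cells). Within the cluster led by Chil3 it was 73.0 CPM (23 UMIs) and 20.5 CPM (26 UMIs). In these clusters alone, only 1 cKO mouse and only 1 control mouse, respectively, had 20 cells, and the fits did not pass (log2 fold changes -2.83 and -0.62, edgeR adjusted p = 0.922 and 0.971).

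In macrophage-like cells the EYFP difference did not pass, and Cx3cr1 was seen in a single cell of the cKO mice. EYFP averaged 160 ± 44.6 CPM in 4 controls and 104 ± 4.1 CPM in 3 cKO mice (SD, exact permutation p = 0.0857), and the lowest control (107 CPM) lay below the highest cKO mouse (108 CPM). The log2 fold change was -0.65 (SE 0.35, edgeR adjusted p = 0.591, with 0.47% of 11065 genes passing). Cx3cr1 gave 56 UMIs in the 548 control cells and 2 in the 220 cKO cells, both in that cell of cKO mouse 8. Its values of 11.6 to 23.8 CPM in controls and 0 to 5.44 CPM in cKO mice did not overlap (19.5 ± 5.4 against 1.81 ± 3.1 CPM, SD, n = 4 and 3, exact permutation p = 0.02857, the smallest possible). Across all genes it did not pass (log2 fold change -2.90, SE 0.81, edgeR adjusted p = 0.121).

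The macrophage-like class was also made up differently. The cluster led by Fcrls and Pf4 held 295 of 548 control cells and 31 of 220 cKO cells, whereas the low-RNA cluster led by Ccl8 held 136 and 129, and the median depth was 4604 UMIs per cell in controls and 1690.5 in cKO mice. Within the cluster led by Fcrls and Pf4, pooled EYFP was 190 CPM in controls and 139 CPM in cKO mice, and Cx3cr1 gave 45 and 0 UMIs, where 0 in 230519 UMIs allows up to 13.01 CPM. Within the low-RNA cluster EYFP was 83.4 and 26.2 CPM. The cluster led by C1qb and C1qa went the other way, with 87.0 CPM in controls and 127 CPM in cKO mice, a log2 fold change of 0.52 (SE 0.56, edgeR adjusted p = 0.911, with 1 cKO mouse of at least 20 cells).

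Dendritic cell-like cells held 19 EYFP UMIs in controls and 2 in cKO mice (log2 fold change -0.84, SE 1.09, edgeR adjusted p = 0.946, with 0.181% of 11065 genes passing). Whether the change in EYFP itself differed between macrophage-like and monocyte-like cells was tested in the same fit. That fit had no term for the mouse, so sums of different types from the same mouse were treated as independent. The difference of the log2 fold changes was 1.51 (SE 0.58, unadjusted p = 0.0119, edgeR adjusted p = 0.956) for EYFP and -2.97 (SE 1.41, unadjusted p = 0.0408, edgeR adjusted p = 0.987) for Cx3cr1, so a difference between the types was not shown.

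**Figure D3:**
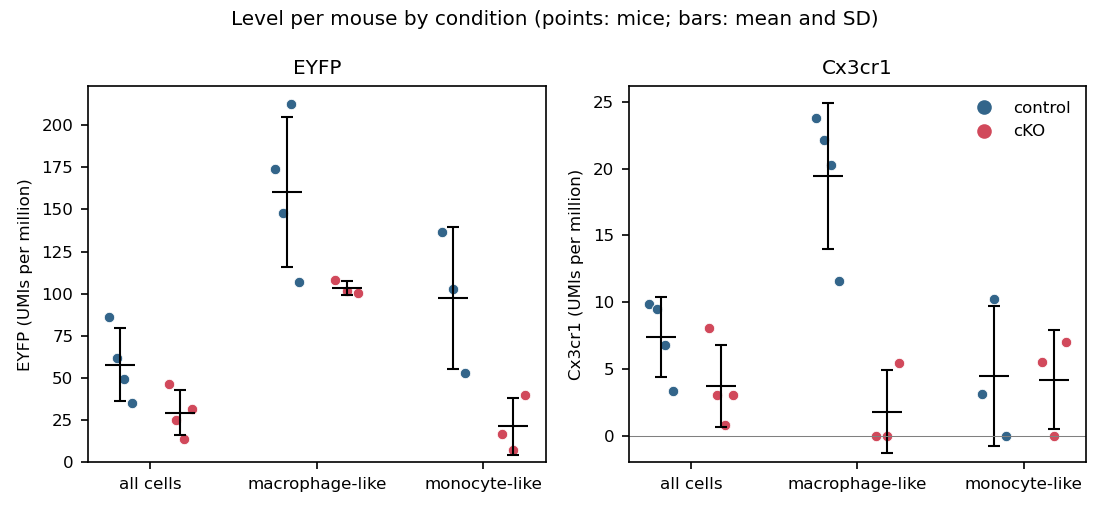
EYFP (left) and Cx3cr1 (right) in CPM by condition, over all cells and in macrophage-like and monocyte-like cells. Points are mice with at least 20 cells, and bars are the mean and SD. In monocyte-like cells the 3 control values lie above the 3 cKO values for EYFP.

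Shares of EYFP-positive cells after thinning had the same direction. Over all cells they were 15.7%, 12.7%, 11.9% and 6.97% in controls 1 to 4 and 10.9%, 2.59%, 2.23% and 5.60% in cKO mice 5 to 8 (means 11.8% ± 3.6 and 5.34% ± 4.0, SD, n = 4 each, exact permutation p = 0.0571). In macrophage-like cells they were 31.3% ± 9.6 in 4 controls and 16.1% ± 5.3 in 3 cKO mice (SD, exact permutation p = 0.0571). In monocyte-like cells they were 23.9%, 19.5% and 6.90% in controls 1, 2 and 4 and 0%, 1.56%, 1.06% and 5.48% in cKO mice 5 to 8 (exact permutation p = 0.02857, the smallest that 3 against 4 mice allow). Without thinning the monocyte-like groups overlapped and p was 0.0571.

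The level that the mix of clusters alone would give in a mouse was computed by giving each cluster its level pooled over all mice, controls and cKO mice together. The mix gave 60.1 ± 9.6 CPM of EYFP for controls and 52.3 ± 2.7 CPM for cKO mice (SD, n = 4 each, exact permutation p = 0.171). The measured EYFP was 1.40, 0.864, 1.02 and 0.592 times that value in controls 1 to 4 and 0.827, 0.502, 0.282 and 0.607 times in cKO mice 5 to 8. All 4 cKO mice lay below the level their mix gave, as did 2 of 4 controls, and the groups overlapped (exact permutation p = 0.0857 on the log2 scale). The pooled levels include each mouse's own counts. Some clusters came almost wholly from 1 condition, such as the one led by Il1a and Dmkn (157 of 160 cells from cKO mice). Cluster make-up and level within clusters can therefore not be told apart in this way. For Cx3cr1 the mix gave 7.54 ± 0.93 and 5.26 ± 1.26 CPM (SD, n = 4 each, exact permutation p = 0.0571).

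**Figure D4:**
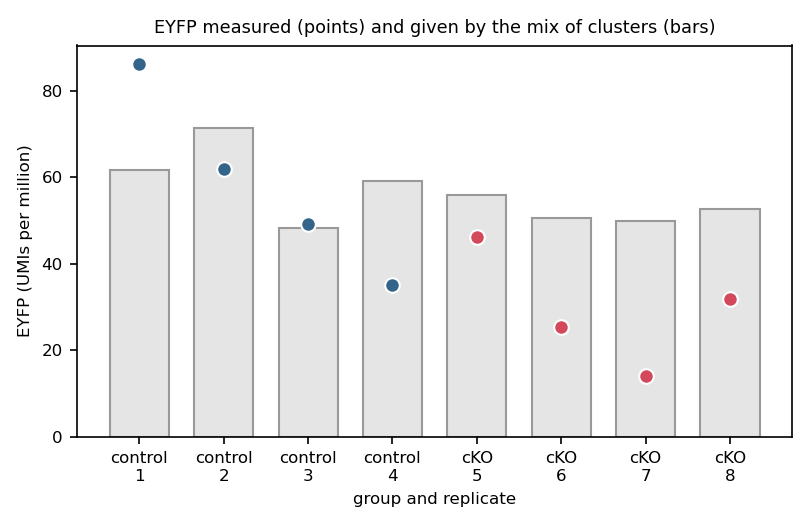
EYFP in CPM for each mouse as measured (points) and as given by its mix of clusters at their levels pooled over mice (bars). The cKO mice lie at 0.282 to 0.827 times the bar and the controls at 0.592 to 1.40 times.

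No other gene of the fractalkine axis passed in these comparisons. Of 8 listed genes 7, Cx3cr1 among them, could be tested in each comparison by condition, and 0 passed in either direction. Over all genes 4.48% passed in all cells, 0.47% in macrophage-like, 0.434% in monocyte-like and 0.181% in dendritic cell-like cells, so 0 of 7 is close to the background. Cathepsin S (Ctss), a protease that can cleave fractalkine, had a log2 fold change of 0.60 (SE 0.16, edgeR adjusted p = 0.0533) over all cells. Adam17 stood at 0.51 (SE 0.17, edgeR adjusted p = 0.108) and Adam10 at 0.43 (SE 0.18, edgeR adjusted p = 0.206). In macrophage-like cells Adam10 stood at -0.63 and Ctss at 0.20, neither passing, so Adam10 had opposite signs over all cells and in this type.

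Genes of MHC class II presentation, which show antigen to CD4 T cells, fell in the monocyte-like cells beside EYFP. Of 7 listed 6 fell and 0 rose, where 0.434% of all genes passed in either direction, with a median log2 fold change of -2.50 against 0.00264 over all genes tested. H2-Ab1 fell by 2.52 (SE 0.25) and H2-Aa by 2.61 (SE 0.28). The lists of identity genes had 1 called member each. Of 20 macrophage identity genes 1 fell, Apoe (log2 fold change -1.79, SE 0.33), and 0 rose. Of 10 monocyte identity genes 1 rose, Ly6c2 (1.81, SE 0.38), and 0 fell. In macrophage-like cells, where 0.47% of all genes passed, 1 of 10 monocyte identity genes rose, again Ly6c2 (3.43, SE 0.51), 1 of 7 MHC class II genes fell, H2-DMa (-0.90, SE 0.19), and 0 of 20 macrophage identity genes passed. No gene of the lists of chemokine receptors (9 genes), growth factor and cytokine receptors (8 genes) or transcription factors (13 genes) passed in either cell type. The make-up of both classes by cluster, given above, applies to these lists as well.

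Macrophage-like cells with and without an EYFP UMI were then compared within mouse at 2000 UMIs per cell, which 3 control mice allowed (105 positive and 297 negative cells). The classes were set after thinning, so negative cells include cells whose EYFP UMI was not among the molecules kept. In control 2, 39 cells were positive and 120 negative after thinning, against 84 and 107 at full depth. EYFP itself, which split the cells, was left out. The edgeR quasi-likelihood fit called 9 of 3971 genes, or 0.227%, 1 higher and 8 lower in positive cells, each in the same direction in 3 of 3 mice. Tmem119, a membrane protein known as a marker of microglia, was 245, 231 and 58.8 CPM in the positive cells of controls 1, 2 and 4 and 74.6, 113 and 46.5 CPM in their negative cells (log2 fold change 1.32, SE 0.34, edgeR adjusted p = 0.0460). Its difference was small in control 4.

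Among the lower genes, Ifitm3, an interferon-induced membrane protein that restricts virus entry, was 357, 410 and 471 CPM in positive cells and 735, 767 and 1674 CPM in negative cells, with no overlap (log2 fold change -1.19, SE 0.20, edgeR adjusted p = 3.35e-06). Its neighbour Ifitm1 differed by -2.02 (SE 0.47, edgeR adjusted p = 0.0137). The chemokine Ccl5 differed by -2.80 (SE 0.39) and Saa3, a serum amyloid A protein, by -1.62 (SE 0.25). These last 2 rested on few cells: 3 of the 297 negative cells held 47.3% of the Ccl5 UMIs and 55.3% of the Saa3 UMIs of that class.

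The remaining 4 were Mgl2, a lectin of macrophages and dendritic cells (-1.04), Jchain, the joining chain of secreted antibodies (-1.03), Pgk1, a glycolytic enzyme (-1.61), and Gm7676, a predicted gene (-3.67, on 1 UMI in positive cells and 40 in negative cells). Jchain is a product of plasma cells, and 1 negative cell held 75 of its 278 UMIs there. At the full depth the lymphoid markers summed to 603 CPM in EYFP-negative and 301 CPM in EYFP-positive macrophage-like cells, with 9 and 10 of the 14 markers in the table detected. Their part in the result was not tested. Cx3cr1, too low to be tested here, was 25.2 ± 4.5 CPM in positive cells (5 UMIs) and 13.02 ± 1.7 CPM in negative cells (8 UMIs; SD, n = 3).

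The choice of molecules kept mattered for these calls. With another random thinning, which also admitted cKO mouse 8, only Ccl5 and Ifitm3 were called, Saa3 changed sign (0.16), and DESeq2 called 0 of the 3971 genes (22 at an unadjusted p below 0.05, against 183 with edgeR). Within mouse and cluster, a comparison added after the data were seen, the 5 called genes were Ccl5, Saa3, Ifitm3, Mgl2 and Gm7676. Ifitm3 differed by -1.06 (SE 0.23, edgeR adjusted p = 0.00449) there and by -1.25 (SE 0.27, edgeR adjusted p = 0.00339) in the cluster led by Fcrls and Pf4 alone.

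**Figure D5:**
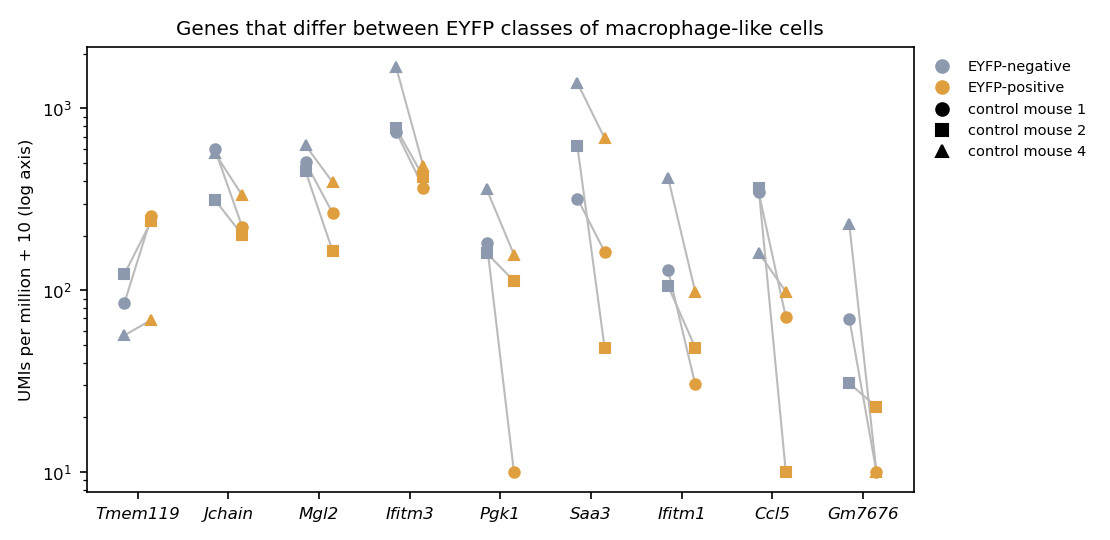
The 9 genes that differed between EYFP-positive and EYFP-negative macrophage-like cells thinned to 2000 UMIs, in CPM + 10 on a log axis. Points are the summed cells of control mice 1, 2 and 4, and lines join the 2 classes of a mouse. Tmem119 is higher in positive cells and the other 8 genes are lower, in all 3 mice.

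Without thinning 6 mice could be used (242 positive and 487 negative cells), and 59 of 7924 genes, or 0.745%, were called, 16 higher and 43 lower. The positive cells were deeper (median 6217 against 2375 UMIs over all macrophage-like cells), and the part of depth was not tested gene by gene. Of the 9 genes called after thinning 8 were called here as well (88.9% of the 9 and 13.6% of the 59), and all 9 had the same sign of the fitted change. The thinned molecules were drawn from these same cells, and controls 1, 2 and 4 were in both fits. The overlap was therefore in large part built in and is no independent check. By mouse, Tmem119 was higher and Ifitm3, Mgl2 and Gm7676 were lower in positive cells in 6 of 6 mice. Ccl5 and Pgk1 were higher in positive cells in 2 of the 6 mice, and Saa3, Ifitm1 and Jchain in 1 of 6. In control 2, Ccl5 was 437 CPM in positive and 217 CPM in negative cells, whereas after thinning it was 0 and 354 CPM. Saa3 was called (log2 fold change -1.17, SE 0.14) although control 4 had 2482 CPM in positive and 534 CPM in negative cells. The errors of this fit thus did not carry all the spread between mice, and its calls rest in part on counting within cells. The 8 most raised genes were H2-M2, a nonclassical MHC gene (log2 fold change 1.89), Mmp2, a matrix protease (1.87), Hist1h2ap, a histone gene with near-identical copies and therefore uncertain (1.22), Cd4 (1.10), Tmem119 (0.98), Olfml3 (0.95), the TGF-beta receptor Tgfbr1 (0.82) and Ptgs1, the cyclooxygenase COX-1 (0.79). Tmem119, Olfml3, Tgfbr1 and Ptgs1 were higher in positive cells in 6 of 6 mice. Tmem119 averaged 195 ± 66.7 CPM in positive and 86.7 ± 17.9 CPM in negative cells, and Olfml3 144 ± 52.9 and 61.0 ± 17.3 CPM (SD, n = 6).

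The 8 most lowered genes without thinning were Tarm1 (-3.62), the chemokine Ccl24 (-2.72), the lectin Cd209a (-2.47), the interferon-induced Rsad2 (-2.38), Tnip3 (-2.22), fibronectin (Fn1, -2.11), the interferon-induced chemokine Cxcl9 (-1.50) and the chemokine Ccl8 (-1.32). Ccl8 averaged 578 ± 324 CPM in positive and 1401 ± 384 CPM in negative cells (SD, n = 6) and was lower in positive cells in 6 of 6 mice. Ccl8 also leads the low-RNA macrophage-like cluster, in which few cells had an EYFP UMI (21 of 265). Cx3cr1 was 15.9 ± 14.99 CPM in positive and 5.27 ± 5.95 CPM in negative cells (SD, n = 6, higher in 4 of 6 mice, log2 fold change 1.48, SE 0.49, edgeR adjusted p = 0.196). Slc3a2 did not pass in either version (log2 fold change 0.34, edgeR adjusted p = 0.996 after thinning and 0.18, 0.901 without).

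None of the gene lists had a member that passed at equal depth. After thinning, 13 of 17 macrophage identity genes tested stood above 0 (median log2 fold change 0.19) and 0 of 3 monocyte identity genes (median -0.42), where 49.0% of all genes tested stood above 0 and their median was -0.00997. Apoe, a lipid carrier of macrophages, stood at 0.41 (edgeR adjusted p = 0.123) and the transcription factor Maf at 0.98 (edgeR adjusted p = 0.197). Of 6 genes of the fractalkine axis that could be tested 0 passed. Without thinning Apoe and Cd4 rose and Pf4 fell among 19 macrophage identity genes tested, Fn1 and F13a1 fell among 8 monocyte identity genes, and Tgfbr1 rose among 8 growth factor and cytokine receptors.

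EYFP-positive monocyte-like cells could not be tested at equal depth, since only control 1 had 10 cells in each class (17 and 54). Without thinning 3 mice could be used (55 positive and 151 negative cells), and edgeR called 0 of 4084 genes, with 221 at an unadjusted p below 0.05. There Ifitm3 differed by -0.13 (SE 0.10) and Ifitm1 by -1.60 (SE 0.43, edgeR adjusted p = 0.233). In dendritic cell-like cells 5 thinned cells were positive, and no test was made.

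The genes whose level was most like that of EYFP and of Cx3cr1 over mice and cell types were found by correlation. Pearson's r of log2(CPM + 10) was taken over 48 sums of a mouse and type, from 7 mice and 12 types, with mouse means removed, among 4836 genes of at least 20 CPM. The points share libraries and differ in depth, so r is a description. The highest values for EYFP were those of Adgre1, which encodes the macrophage antigen F4/80 (0.83), the phosphatase Dusp6 (0.82), Ftl1-ps1 (0.82), the prostaglandin-degrading enzyme Hpgd (0.81) and the ferritin light chain Ftl1 (0.81). Ftl1 and Ftl1-ps1 are near-identical, so reads may be split between them. For Cx3cr1 they were those of Aoah, which inactivates endotoxin (0.66), Rassf2 (0.65), Dusp6 (0.65), Cd300ld (0.62) and Fyb (0.61). EYFP and Cx3cr1 correlated with each other at 0.59, which placed EYFP at rank 10 for Cx3cr1 and Cx3cr1 at rank 174 for EYFP.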

How the data were processed

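Single-cell 3′ libraries (10x Genomics) were made from 8 mice, 1 library per mouse, on the same day. The deposited UMI counts were made by the authors with Cell Ranger and STAR 2.5.3a on mm10 (Ensembl 84) plus an EYFP sequence, and were aggregated without equalising depth. The members and gene lists were chosen with earlier results of these data known.

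Cells with log10 UMIs of at least 2.8, log10 genes of at least 2.6, at most 5% mitochondrial UMIs and no hemoglobin UMI were kept. They were clustered with scran 1.30.0 (pool-based size factors, 9 principal components, Ward, 15 clusters), without Cx3cr1, EYFP and Slc3a2, and named when at least 3 markers of a type led them. Doublets were called with scanpy 1.11.5 and kept, except in an alternative. UMIs were summed per mouse and type (at least 20 cells) and fitted with edgeR 4.0.16 (TMM, quasi-likelihood, Benjamini-Hochberg over all genes; CPM over 1 in at least 3 sums and a UMI in at least 20 cells), with DESeq2 1.42.0 as an alternative. A gene passed at an adjusted p below 0.05. For the comparisons by condition within types, the sums of all types entered a joint model without a mouse term. Levels within mouse were compared on log2(CPM + 10). EYFP classes needed 10 cells of each class per mouse, with mouse as a block. The fits were tested on simulated counts with known changes. Those counts held no effect shared by the sums of a mouse and no reads concentrated in few cells, so these were not tested. The genes named are EYFP, Cx3cr1, Slc3a2, members of the lists with the smallest p, the 8 largest called changes in each direction between EYFP classes and the 5 genes most like each member. Poisson and binomial intervals (95%) and the floor of 3 UMIs cover counting error only. Promoter windows are RefSeq's. Exact p-values over mice measure the spread between the mice of 1 experiment. The errors of the EYFP class fits, and of the fits by condition within types or clusters, can be smaller than that spread.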

Additional observations from a re-analysis of the deposited data

Results flagged for a closer look

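Both transcripts were also present in the 2734 barcodes that the cell filter left out, of which 1787 had over 5% mitochondrial UMIs and which no comparison used. EYFP stood there at 31.7 CPM (43 UMIs, 95% exact Poisson interval 22.9 to 42.7), with 44.2 CPM in the left-out barcodes of controls and 16.4 CPM in those of cKO mice. Cx3cr1 stood at 6.63 CPM (9 UMIs, 3.03 to 12.6). Both lay above the limit that a count of 0 allows. By mouse, EYFP was 67.5, 48.2, 0 and 19.8 CPM in controls 1 to 4 and 40.9, 12.6, 12.5 and 18.5 CPM in cKO mice 5 to 8. These barcodes hold damaged cells and free RNA, which were not separated. Among 14 groups of mice whose lowest and highest values were tested against the rest, 0 held a mouse that stood apart by Dixon's criterion.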

How the results depend on the processing

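Of the values recomputed under other settings, 217 kept their direction and their side of the threshold, 35 lost the threshold, 6 passed it, 5 moved and 2 reversed. Some of the 217 could not differ, because the mouse left out, such as control 3 or cKO 5, was not used in that comparison. The 217 also include results that passed in neither setting. For exact tests the threshold was applied to p-values before adjustment. The 217 are therefore no measure of robustness. The reversed values were EYFP by condition in dendritic cell-like cells clustered without genes that differ between conditions (log2 fold change 0.33, edgeR adjusted p = 1) and the co-occurrence ratio at 1000 UMIs (0, on 2.03 cells given by independence). The co-occurrence ratio at full depth within mouse, cluster and depth class was 1.36. EYFP over all cells passed without the low-count filter (-1.03, edgeR adjusted p = 0.0338) and in macrophage-like, monocyte-like and unnamed clusters only (-1.62, 0.0146). Leaving out 1 mouse gave -1.24 to -0.73, with adjusted p below 0.05 only without control 4 (0.0296). EYFP in monocyte-like cells was -2.02 with graph clustering (edgeR adjusted p = 0.0593) and -3.02 to -1.69 with 1 mouse left out (0.000103 to 0.259). DESeq2 gave no adjusted p there (-2.23, unadjusted p = 0.000287) nor for Cx3cr1 in macrophage-like cells (-3.14, unadjusted p = 0.0209). The latter was -6.38 with graph clustering (edgeR adjusted p = 0.0481) and -5.90 to -2.44 with 1 mouse left out. The EYFP difference from dendritic cell-like cells was 3.34 in 5 mice without genes that differ between conditions (exact p = 0.0625), and with 1 mouse left out 3.35 to 3.54. With 1 mouse left out the difference from monocyte-like cells was 0.999 to 1.47 and from lymphoid-like and stromal-like cells 3.61 to 3.75, where 5 mice cannot go below 0.0625. The share of EYFP-positive monocyte-like cells differed by -20.4 points without thinning (exact permutation p = 0.0571), -14.4 points without doublet calls (p = 0.1, permutation) and -19.7 to -11.2 points with 1 mouse left out. By type the shares were 11.5% and 5.27% at 1000 UMIs and 33.5%, 15.6% and 2.76% without thinning. The 9 genes of the EYFP classes became 0 with DESeq2, 0 without the mouse block, 0 at 1000 UMIs, 2 with another thinning, 5 with 9 clusters, 5 within mouse and cluster, 5 in the leading cluster alone, 59 without thinning and 3 to 6 with 1 mouse left out. The causes were not tested. Mice without control 3 and cKO 5, left out after the data were seen, gave -1.25 for EYFP over all cells (edgeR adjusted p = 0.0776). The low Cx3cr1 count limits every statement on it. No paired analysis was possible because replicate numbers 1 to 8 occur once each and pair no mice.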

Other observations

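EYFP-positive and EYFP-negative macrophage-like cells were also compared within each condition, at full depth over 6 mice. Among 7924 genes the edgeR quasi-likelihood fit called 9 higher and 18 lower in positive cells of controls and 7 higher and 27 lower in those of cKO mice, and the difference between the conditions itself was called for 6 genes in one direction and 12 in the other. For Slc3a2 the difference between positive and negative cells was 0.06 on the log2 scale (SE 0.18) in controls and 0.39 (SE 0.24) in cKO mice, and the difference of the differences was 0.32 (SE 0.30, edgeR adjusted p = 0.9997). A lower Slc3a2 level in the cells that carry the Cre reporter RNA of tamoxifen-treated mice was thus not detectable in these counts.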
